A study of Mus musculus with 4 samples.

Results

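The 33 genes described here encode transcription factors of epidermal progenitors, of stratification and of skin barrier formation. They were taken as a list of names, matched to probe sets with a single annotated gene symbol, and read from the brightest probe set of each gene. All 33 had exactly 1 such probe set, among 19938 named genes on the array, and all 33 were bright enough to be tested among 14953 genes. Total RNA of whole skin from mouse embryos at E16.5 (E for embryonic day) was measured on 4 Affymetrix whole-transcript arrays, 2 per group, each with RNA of 2 mice. The Ovol2 BT embryos carried the transgene TRE-Ovol2-Flag together with K5-tTA, a tetracycline-controlled activator driven by the keratin 5 promoter, and overexpressed Ovol2, a zinc finger factor of epithelia, in the epidermis. The control embryos were wild type or carried TRE-Ovol2-Flag alone. No embryo with K5-tTA alone was analysed here, so the activator and the overexpressed gene cannot be told apart. The labels name the strain CB6F1 for both control arrays and FVB/N for both Ovol2 BT arrays, although they also speak of littermates. Strain and genotype therefore cannot be told apart in any difference below.

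The epidermis is renewed by a basal layer of dividing keratinocytes, whose daughters move outward through spinous and granular layers and end as the cornified barrier. The p63 protein, encoded by Trp63, commits the surface ectoderm to this fate and keeps basal cells dividing, together with AP-2, Klf5 and basonuclin. Grainyhead-like factors, epithelial ETS factors, Klf4, the C/EBP pair and Zfp750 then switch on spinous and barrier genes, while Sox21, Gata3 and Runx1 act in the hair follicle.

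Ovol2 had intensities of 176 and 297 in control skin and 7798 and 7949 in Ovol2 BT skin, so its level matched the label on every array. Differences are given as Ovol2 BT minus control on the log2(intensity + 16) scale. Ovol2 rose by 5.01 (SE 0.27, limma adjusted p = 0.0253), and this call was lost with cyclic loess (adjusted p = 0.0543) and with a variance without trend (adjusted p = 0.059). The Ovol2 BT replicate 2 array stood apart, with 893 genes over 2-fold below the mean of the other 3 arrays against 30 to 43 on each of those. The labels call all embryos female, but the Y-linked Kdm5d read 9.42 and 5.76 in log2 level on control replicates 1 and 2 and 9.70 and 4.80 on Ovol2 BT replicates 1 and 2. Replicate number thus went with the Y-linked signal. The X-linked Xist read 7.07 and 13.16 on control replicates 1 and 2 and 8.36 and 10.8 on Ovol2 BT replicates 1 and 2. Same-numbered arrays therefore did not match at Xist, and the part of sex in the differences was not tested. The keratinocyte markers were bright on every array (Krt1 at a log2 level of 13.99 to 14.10, Dsp at 13.18 to 13.39), and so were those of dermal fibroblasts, so the arrays read whole skin. Skeletal muscle markers summed to 41337 and 24369 in control and 23498 and 46380 in Ovol2 BT skin, replicates 1 and 2 in turn. Erythroid markers summed to 3531 and 6942 against 4118 and 15015. The part of these shifts in the gaps between arrays was not tested. In whole skin, fewer cells of a type and less RNA per cell cannot be told apart.

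No epidermal transcription factor passed an adjusted p of 0.05 in limma, in either direction, where 0.0268% of all genes tested passed (0.0201% higher, 0.00669% lower). At an unadjusted p under 0.05, 6 of 33 were lower in Ovol2 BT skin and 0 were higher, which is 18.2% of the factors, against 4.23% of all genes (1.74% lower, 2.49% higher). The 6 were Sox21, Bnc1, Tfap2c, Elf5, Grhl2 and Dlx5. The list was drawn up with earlier results of these data known, so these counts are a description. Both Ovol2 BT arrays lay below both control arrays for 16 factors, against 14.1% of all genes, and above both for 6, against 20.1%, so the groups did not overlap for 66.7% of the factors and 34.2% of all genes. The difference was negative for 23 factors (69.7%, against 45.6% of all genes) and over 1.5-fold, a log2 size of 0.585, for 5 (15.2%, against 6.89%). The median difference of the 33 was -0.15, against 0.026 over all genes tested, and the median distance from the control mean was -0.07 for Ovol2 BT replicate 1 and -0.17 for replicate 2. Without Ovol2 BT replicate 2 it was -0.07.

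**Figure D1:**
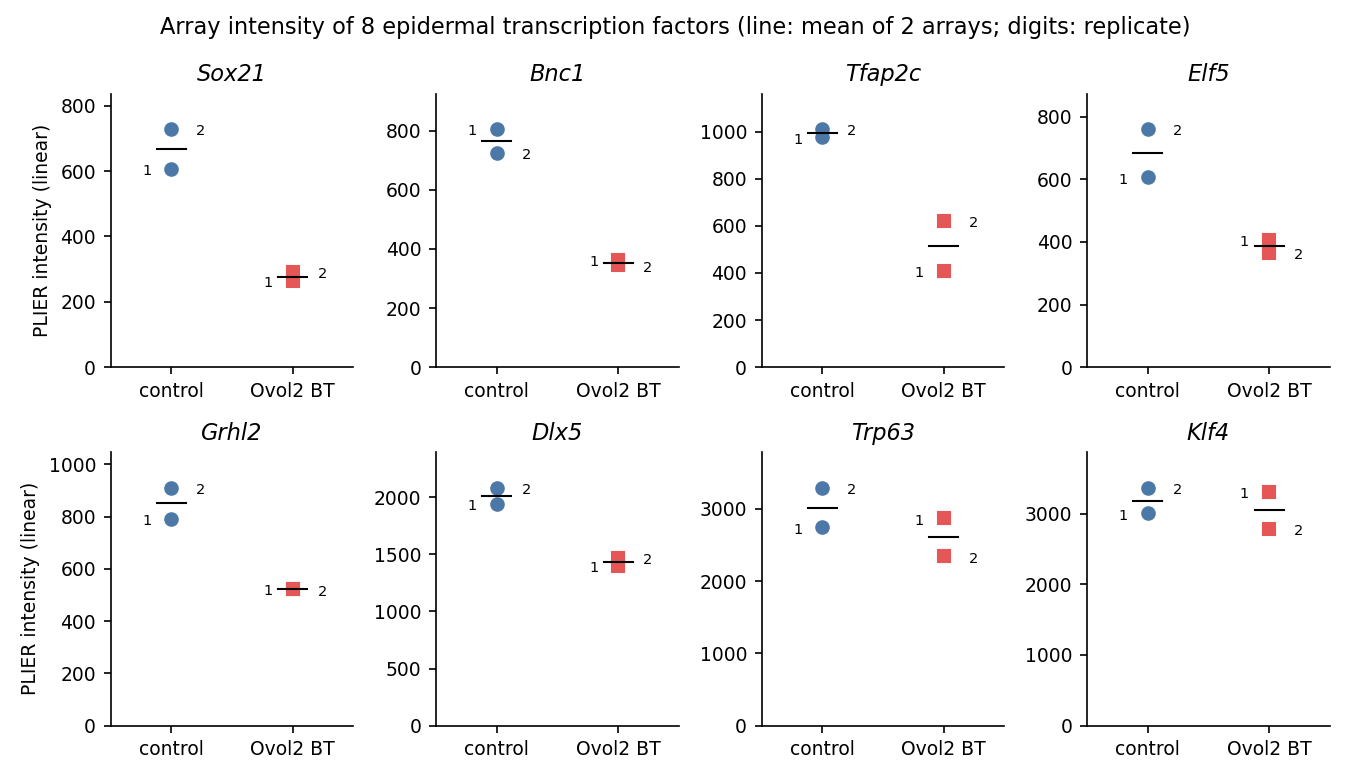
Deposited PLIER intensity (linear scale from 0) of 8 factors on the 2 control arrays (circles) and the 2 Ovol2 BT arrays (squares), with the mean of each pair as a line. The groups do not overlap for Sox21, Bnc1, Tfap2c, Elf5, Grhl2 and Dlx5, while those of Trp63 and Klf4 do. The factors from Sox21 to Dlx5 were named by their unadjusted p, so their lack of overlap largely follows from that choice. Over all genes tested the groups did not overlap for 34.2%.

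Most of the differences were small, but not smaller than those of a typical gene. The difference was under 0.3 in size for 23 of the 33 and under 0.5 for 28. The median size was 0.184, against 0.155 over all genes tested. The 95% interval included 0 for 27, which are all but the 6 at an unadjusted p under 0.05. That p was reached by 18.2% of the factors and 4.23% of all genes. Of all 33 intervals, 7 reached past 1 or -1, a 2-fold change. The control arrays themselves differed for these genes. Control replicate 2 was above control replicate 1 for 24 of 33 factors, against 49.3% of all genes tested. The median of that gap was 0.15, the same size as the median difference between genotypes, while over all genes tested it was -0.0034. The gap between controls was larger than the genotype difference for 13 factors (39.4%, against 44.6% of all genes), and the gap between Ovol2 BT arrays for 15 (45.5%, against 71.9%). The 13 with the larger control gap included Trp63, Klf4, Tfap2a, Gata3 and Grhl1, and none of the 6 lower factors. The absence of the 6 largely follows from their choice by p, which weighs the difference against the gaps within groups.

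**Figure D2:**
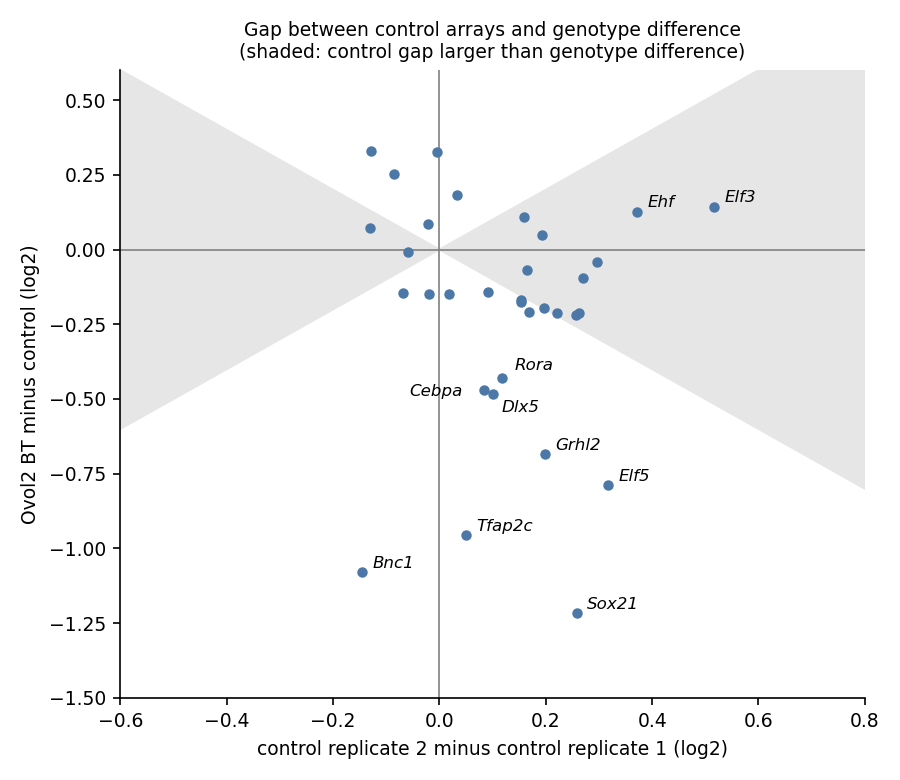
Each point is a factor, placed by the log2 gap between the control arrays (horizontal) and by the log2 difference between genotypes (vertical). The shaded wedges hold the 13 factors whose control gap was the larger, and Sox21, Bnc1, Tfap2c, Elf5, Grhl2 and Dlx5 lie well below them. These were named by their unadjusted p, so their place outside the wedges largely follows from that choice.

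The regions in front of the 2 factors with the largest differences are shown. Both hold a match to the letters bound by AP-2, as do windows of 8 other factors. Each line is the stretch of 250 bases before the RefSeq transcription start, read 5′ to 3′ on the gene's strand in GRCm38.p6, with the AP-2 letters GCCNNNGGC in capitals. The Sox21 stretch is chr14:118237031-118237280, minus strand, with its match starting at base -193 from the start. The Bnc1 stretch is chr7:81992300-81992549, minus strand, with its match starting at base -173.
Sox21: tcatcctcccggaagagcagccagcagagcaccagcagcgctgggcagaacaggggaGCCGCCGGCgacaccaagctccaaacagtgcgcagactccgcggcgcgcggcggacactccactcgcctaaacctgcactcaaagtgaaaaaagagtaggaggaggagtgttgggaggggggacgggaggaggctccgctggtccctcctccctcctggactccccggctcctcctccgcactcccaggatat
Bnc1: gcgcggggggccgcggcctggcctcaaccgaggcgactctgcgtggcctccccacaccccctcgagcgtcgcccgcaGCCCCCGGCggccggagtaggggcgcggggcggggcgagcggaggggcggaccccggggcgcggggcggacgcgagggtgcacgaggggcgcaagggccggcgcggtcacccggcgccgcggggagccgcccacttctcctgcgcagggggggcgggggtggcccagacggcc

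RefSeq windows of 300 bases, from 250 before to 50 after a start, were at hand for 20 of the 33 factors (25 windows) and for 14874 starts of the genes tested. Tfap2c, Grhl2 and Dlx5, lower at an unadjusted p under 0.05, had no window and were not searched. The same held for Trp63, Klf5 and Zfp750, among others. The AP-2 letters GCCNNNGGC, which read the same on both strands, were in 11 of the 25 windows (44.0%), against 23.8% of the windows of all genes tested. Those windows belonged to 10 factors, among them Gata3, Hopx, Klf4, Grhl1, Runx1 and Rora, most of which differed little between genotypes. The median GC content was 60.7% in the factors' windows and 60.0% in those of all genes tested. It was higher in the stretches printed above, at 65.2% for Sox21 and 83.6% for Bnc1. The Ovol letters CCGTTA, searched on both strands, were in 0 of the 25 windows and in 3.33% of the windows of all genes tested. The grainyhead letters AACCGGTT were in 0 and in 0.195%. The AP-1 letters TGANTCA were in 1 window, that of Prdm1, and in 5.76% of all. A match or its absence describes only the letters of these windows.

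Among the factors of basal progenitors and stratification, 9 of 10 had negative differences (45.6% of all genes did), and 2 of them, Bnc1 and Tfap2c, were at an unadjusted p under 0.05 (1.74% of all genes were lower at that level). Bnc1 encodes basonuclin 1, a zinc finger protein of basal keratinocytes. Its intensity was 805 and 726 in control skin and 364 and 344 in Ovol2 BT skin. The Ovol2 BT values were 19.2 units apart and lay far below both controls. The difference was -1.08 (SE 0.18, 95% interval -1.53 to -0.62, adjusted p = 0.432), a 2.11-fold lower level. Bnc1 passed the threshold without Ovol2 BT replicate 1 (adjusted p = 0.00258) and without replicate 2 (adjusted p = 0.0374), in fits that give the remaining Ovol2 BT array the spread of the controls.

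Tfap2c encodes AP-2 gamma, which acts in the early commitment of surface ectoderm to epidermis. Its intensity was 975 and 1010 in control skin and 409 and 621 in Ovol2 BT skin. The controls were close together, and Ovol2 BT replicate 1 was the lowest of the 4. The difference was -0.96 (SE 0.25, 95% interval -1.59 to -0.32, adjusted p = 0.798), with replicate 1 at -1.25 and replicate 2 at -0.66 from the control mean. The controls lay only 0.05 apart, against 0.58 between the Ovol2 BT arrays. Without control replicate 1 the difference was -0.98 and without control replicate 2 it was -0.93. The other AP-2 genes showed smaller differences. Tfap2a read 2791 and 3368 in control and 2935 and 2811 in Ovol2 BT skin, a difference of -0.09 (SE 0.15) with overlapping groups. Tfap2b read 1195 and 1210 against 1144 and 1024, a difference of -0.15 (SE 0.18) without overlap. The contrast between Tfap2c and its relatives was not tested.

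Trp63, the regulator that maintains basal cells, read 2744 and 3294 in control skin and 2870 and 2344 in Ovol2 BT skin. Its groups overlapped, since Ovol2 BT replicate 1 lay between the controls. The difference was -0.21 with a 95% interval of -0.66 to 0.23 (adjusted p = 0.906), and single arrays moved it, to -0.067 without Ovol2 BT replicate 2 and -0.357 without replicate 1. Klf5, a Krüppel-like factor of proliferating epithelium, read 4905 and 5724 against 4505 and 4648, with no overlap and a difference of -0.21 (SE 0.12, adjusted p = 0.906). Both Ovol2 BT values of Klf5 lay under the lower control, by less than the controls lay apart.

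Bcl11a and Bcl11b, related zinc finger factors that also act in lymphocytes and neurons, were near the control level. Bcl11a read 2288 and 2816 in control and 2420 and 2509 in Ovol2 BT skin, a difference of -0.04 (SE 0.17). Bcl11b read 1978 and 1952 against 1771 and 1772, a difference of -0.15 (SE 0.15). Each pair of Bcl11b arrays was nearly equal, so its small difference separated the groups. Ets1, an ETS factor of proliferating keratinocytes that endothelium and lymphocytes also express, read 858 and 822 against 814 and 855, a difference of -0.009 (SE 0.18). The summed intensity of 8 endothelial markers, none of them at 0, was 13876 and 14705 in control and 14621 and 15687 in Ovol2 BT skin. Its part in the Ets1 value was not tested. Fosl1, a Fos-related partner in AP-1 induced in stressed and migrating keratinocytes, was the single factor of this group with a positive difference. It was dim, at 185 and 173 in control and 245 and 190 in Ovol2 BT skin, and differed by 0.25 (SE 0.17, adjusted p = 0.906), or by 0.081 without Ovol2 BT replicate 1.

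Of the 6 grainyhead and epithelial ETS factors, Grhl2 and Elf5 were lower at an unadjusted p under 0.05, against 1.74% of all genes. Grhl2, which sustains E-cadherin and tight junction genes in epithelia, read 791 and 911 in control skin and 523 and 522 in Ovol2 BT skin. The Ovol2 BT arrays were 1.2 intensity units apart and lay below both controls. The difference was -0.68 (SE 0.19, 95% interval -1.16 to -0.21, adjusted p = 0.853), a 1.61-fold lower level, and it passed without Ovol2 BT replicate 1 (adjusted p = 0.0294), where 16.4% of all genes passed, but not without replicate 2 (adjusted p = 0.199). Its relatives stayed closer to control. Grhl1, which maintains desmosomal cadherin genes, read 1590 and 1823 against 1417 and 1556, a difference of -0.20 (SE 0.18). Grhl3, needed for barrier formation, read 4079 and 4346 against 3898 and 3739, a difference of -0.14 (SE 0.11). All 3 grainyhead genes had both Ovol2 BT arrays below both controls, as did 14.1% of all genes, with Grhl2 showing the largest difference of the 3, a contrast that was not tested. Cdh1, the E-cadherin gene, differed by 0.071.

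Elf5, an ETS factor of keratinocytes and glandular epithelium, read 607 and 760 in control skin and 408 and 366 in Ovol2 BT skin. The highest Ovol2 BT value lay well under the lowest control. The difference was -0.79 (SE 0.20, 95% interval -1.30 to -0.28, adjusted p = 0.789), a 1.73-fold lower level, and it passed without Ovol2 BT replicate 1 (adjusted p = 0.0152), in that same fit, but not without replicate 2 (adjusted p = 0.221). The other epithelial ETS factors, Elf3 and Ehf, did not separate. Elf3 read 224 and 327 in control and 265 and 342 in Ovol2 BT skin, a difference of 0.14 (SE 0.24). Ehf read 764 and 992 against 1230 and 736, a difference of 0.13 (SE 0.30). For Ehf the highest and the lowest of the 4 values were both Ovol2 BT arrays, and both genes changed sign when single arrays were left out.

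**Figure D3:**
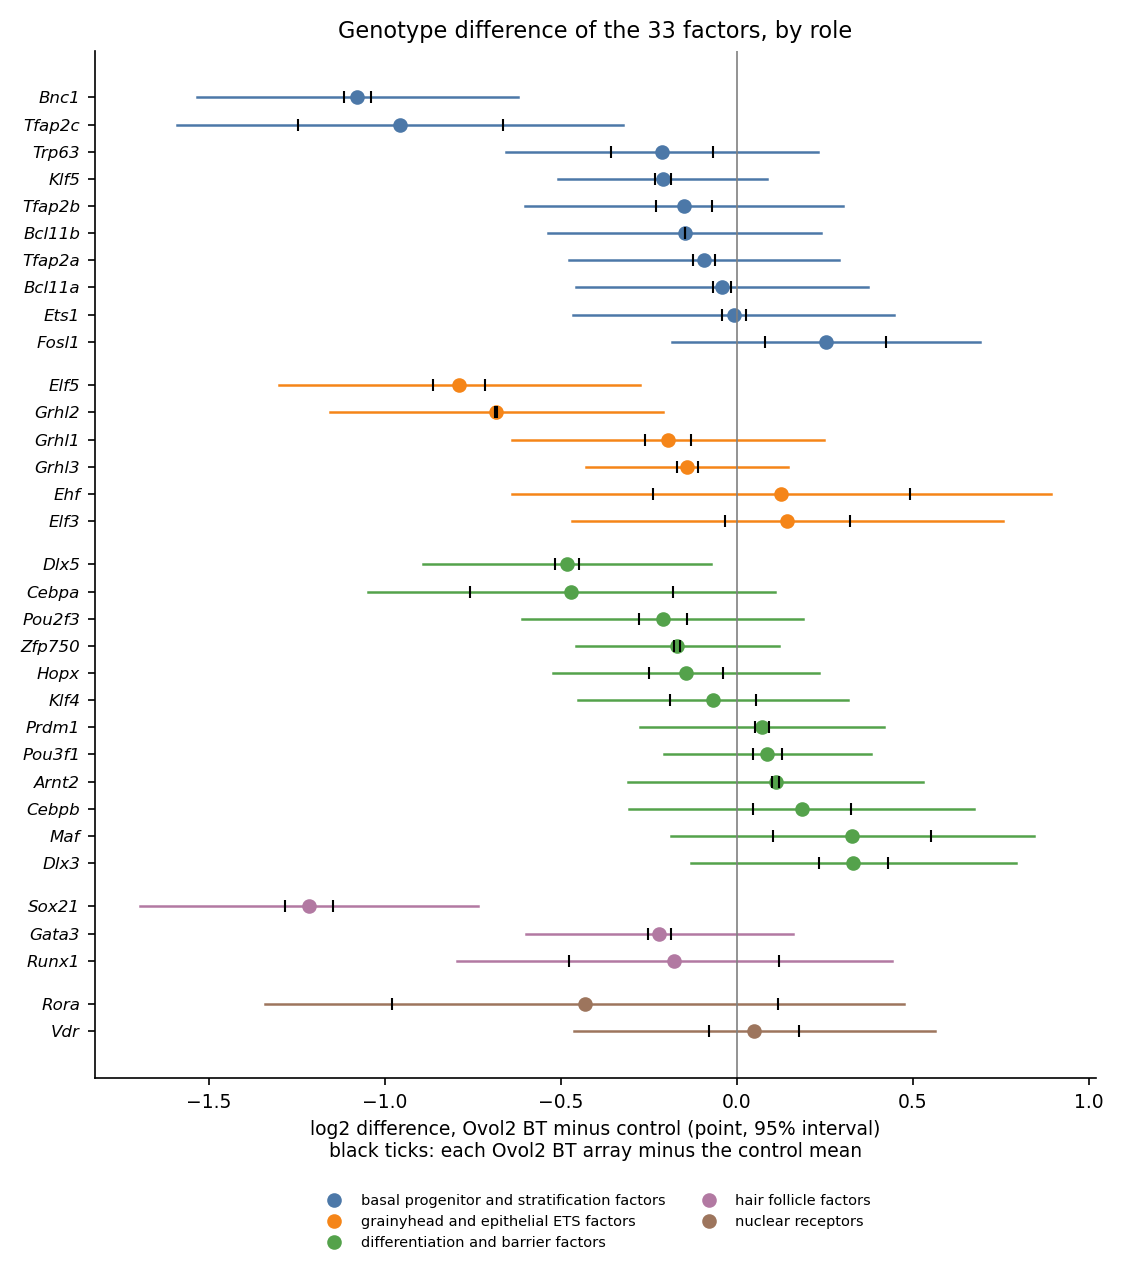
Log2 difference between genotypes of all 33 factors (points) with the 95% interval of the limma fit (bars), grouped by role, and each Ovol2 BT array minus the control mean (black ticks). The intervals of Sox21, Bnc1, Tfap2c, Elf5, Grhl2 and Dlx5 lie below 0, and none lies above it, which restates their choice by an unadjusted p under 0.05.

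The 12 factors of differentiation and barrier formation had 6 positive and 6 negative differences, with a median of 0.0024, and 1 of them, Dlx5, was lower at an unadjusted p under 0.05, against 1.74% of all genes. Dlx5 and Dlx3 are distal-less homeobox factors, and Dlx3 acts in the hair follicle and in epidermal differentiation. Dlx5 read 1940 and 2082 in control skin and 1401 and 1468 in Ovol2 BT skin. Neither group spread far, and the groups did not overlap. The difference was -0.48 (SE 0.16, 95% interval -0.89 to -0.07, adjusted p = 0.906), a 1.40-fold lower level. Dlx3 lay on the other side, at 1232 and 1125 in control and 1388 and 1590 in Ovol2 BT skin. Its difference of 0.33 (SE 0.18, 95% interval -0.13 to 0.79) was the largest positive value among the 33, and the difference between both Dlx genes was not tested.

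Cebpa and Cebpb encode the C/EBP pair that takes basal cells out of the cell cycle and into the spinous layer. Cebpa read 2401 and 2547 in control skin and 1455 and 2179 in Ovol2 BT skin. Both Ovol2 BT values were under the controls, but replicate 1 accounted for most of the gap. The difference was -0.47 (SE 0.23, adjusted p = 0.906), and it was -0.18 without Ovol2 BT replicate 1 and -0.76 without replicate 2 (adjusted p = 0.0568). Cebpb read 991 and 1015 against 1035 and 1260, a difference of 0.18 (SE 0.19). Maf, the c-Maf factor of keratinocyte differentiation, read 1657 and 1652 in control and 2431 and 1779 in Ovol2 BT skin. Its difference was 0.33 (SE 0.21, adjusted p = 0.906), and 0.10 without Ovol2 BT replicate 1. Cebpa, Cebpb and Maf are also expressed by myeloid cells. The summed intensity of 12 myeloid markers, with none at 0, was 13114 and 11413 in control and 15008 and 17491 in Ovol2 BT skin. Of 11 markers tested, 8 were above both controls on both Ovol2 BT arrays (72.7%, against 20.1% of all genes). Mrc1, Cd14 and Fcgr3 overlapped between groups. The part of the myeloid signal in the values of Cebpa, Cebpb and Maf was not tested.

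The main barrier regulators showed small differences at high intensity. Klf4, required for barrier acquisition, read 3003 and 3366 in control and 3302 and 2787 in Ovol2 BT skin. The groups overlapped, and the difference was -0.07 with a 95% interval of -0.45 to 0.32. Zfp750, a p63 target that drives terminal differentiation, read 4343 and 4835 against 4047 and 4099, a difference of -0.17 (SE 0.12). Prdm1, the Blimp1 repressor of the granular layer, read 2841 and 2594 against 2895 and 2816, a difference of 0.072 (SE 0.14). Its Ovol2 BT replicate 2 lay between the controls. Hopx, a homeodomain-only protein of differentiating keratinocytes, read 2825 and 2692 against 2683 and 2319, a difference of -0.14 (SE 0.15).

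The POU factors of the suprabasal layers, Pou2f3 and Pou3f1, differed in sign. Pou2f3 read 2252 and 2531 in control and 1966 and 2162 in Ovol2 BT skin, a difference of -0.21 (SE 0.16). Pou3f1 read 3631 and 3575 against 3717 and 3939, a difference of 0.086 (SE 0.12). Neither overlapped between groups, and both intervals included 0. Arnt2, a bHLH-PAS partner factor, was dim at 298 and 335 against 340 and 345, a difference of 0.11 (SE 0.17).

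Among the hair follicle factors, Sox21 had the largest difference of all 33. Sox21, an HMG-box factor needed for hair shaft cuticle differentiation, read 607 and 728 in control skin and 264 and 291 in Ovol2 BT skin. The lower control was 2.08 times the higher Ovol2 BT value. The difference was -1.22 (SE 0.19, 95% interval -1.70 to -0.74, adjusted p = 0.423), a 2.32-fold lower level. Without Ovol2 BT replicate 1 Sox21 differed by -1.15, and without replicate 2 by -1.28. Without control replicate 1 it differed by -1.345, and without control replicate 2 by -1.087. Gata3, which specifies the inner root sheath and acts in barrier lipid synthesis, read 2916 and 3488 in control and 2673 and 2801 in Ovol2 BT skin. Its difference was -0.22 (SE 0.15), smaller than the gap of 0.26 between the controls. Runx1, a follicle stem cell factor that blood cells also express, read 1630 and 1814 against 1871 and 1232. Its Ovol2 BT arrays lay on either side of the controls, and the difference was -0.18 (SE 0.25), or 0.12 without replicate 2.

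The nuclear receptors did not separate by group. Rora, the retinoic acid receptor-related orphan receptor alpha, read 2758 and 2991 in control skin and 3117 and 1449 in Ovol2 BT skin. Only Ovol2 BT replicate 2, the array that stood apart over all genes, was low. The difference was -0.43 (SE 0.36, adjusted p = 0.906). It was 0.12 without that array and -0.98 without Ovol2 BT replicate 1 (adjusted p = 0.00162), where 16.4% of all genes passed. Vdr, the vitamin D receptor that hair cycling requires, read 738 and 846 against 748 and 897, a difference of 0.05 (SE 0.20) with overlapping groups.

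Left with 1 Ovol2 BT array, the fits called more genes, 2453 without replicate 1 and 107 without replicate 2, against 4. Without Ovol2 BT replicate 2, 3 factors passed and were lower (Sox21, Bnc1 and Tfap2c, 9.09% of 33, against 0.716% of all genes), and 10 were at an unadjusted p under 0.05 (30.3%, against 8.59%). Without Ovol2 BT replicate 1, 6 passed (these 3 with Elf5, Grhl2 and Rora, 18.2%, against 16.4% of all genes), and 10 were at an unadjusted p under 0.05 (30.3%, against 31.9%). In the second fit the share of factors was thus near the background. Without control replicate 1 or without control replicate 2 none passed in limma, with 4 and 2 factors at an unadjusted p under 0.05 (12.1% and 6.06%, against 2.13% and 1.53% of all genes).

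The other skin transcription factors, a list of 48 that leaves out the 33, had a median near 0 that turned with the arrays used. Of 44 tested none passed in limma, 4 were higher and 4 lower at an unadjusted p under 0.05 (18.2% in all, the share seen for the 33, against 4.23% of all genes). The median difference was 0.022, but -0.06 without Ovol2 BT replicate 2, where that of the 33 was -0.069, and -0.009 without control replicate 1. It was -0.003 with cyclic loess and also under the 50th percentile filter. The 4 with the smallest p included follicle regulators in both directions. Hr, the hairless corepressor of the hair cycle, differed by 0.96 (SE 0.17), with log2 levels of 9.89 and 9.98 in control and 10.85 and 10.94 in Ovol2 BT skin. Lhx2, a LIM homeobox factor of the hair placode, differed by -1.03 (SE 0.20), from 10.55 and 10.50 to 9.35 and 9.63. Sox9, a factor of follicle stem cells and outer root sheath, differed by 0.56 (SE 0.16), and Foxn1, which promotes keratinocyte differentiation and hair shaft formation, by 0.57 (SE 0.19). For these 4 the groups did not overlap. Hr and Lhx2 passed whichever Ovol2 BT array was left out, in fits that give the remaining array the spread of the controls.

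Chromatin regulators of the epidermis, 16 of 18 tested, had a median of -0.03, and none passed in limma. Satb1, a genome organiser downstream of p63, was the only one at an unadjusted p under 0.05, with a difference of -0.47 (SE 0.18, adjusted p = 0.906) and log2 levels of 10.80 and 11.02 in control and 10.51 and 10.36 in Ovol2 BT skin. Both Ovol2 BT values lay below both controls. The next by p were Bmi1 (-0.45), Hdac2 (-0.46) and the demethylase gene Kdm6b (0.23), whose groups overlapped.

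Textbook targets of these factors in keratinocytes, 25 of 28 tested, had a median difference of -0.08, and none passed in limma. At an unadjusted p under 0.05, 4 were lower and 1 higher (20.0% in all, against 1.74% of all genes lower and 2.49% higher). Of the 4 with the smallest p, 3 were basal keratins, Krt15 (-1.41), Krt5 (-0.87, adjusted p = 0.0597) and Krt14 (-0.66), and the other was Cdsn, the corneodesmosin of cornified cells (0.31). Krt5 passed with the replicate number as a block, with quantile normalisation and under the 50th percentile filter. Krt15, Krt5 and Krt14 also passed whichever Ovol2 BT array was left out, in fits that give the remaining array the spread of the controls. The summed intensity of 8 keratinocyte markers, with none at 0, was 85041 and 86253 in control and 73500 and 71608 in Ovol2 BT skin. Krt5 and Krt14 made up most of that gap. Perp, Epcam, Krt1, Krt10, Dsp and Cdh1 differed by -0.167, -0.105, -0.077, -0.081, -0.04 and 0.071 in log2. Of the 8 markers, 7 had negative differences (87.5%, against 45.6% of all genes). For 5 of them both Ovol2 BT arrays lay below both controls (62.5%, against 14.1%). The part of the keratinocyte signal in the values of the 33 factors was not tested.

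**Figure D4:**
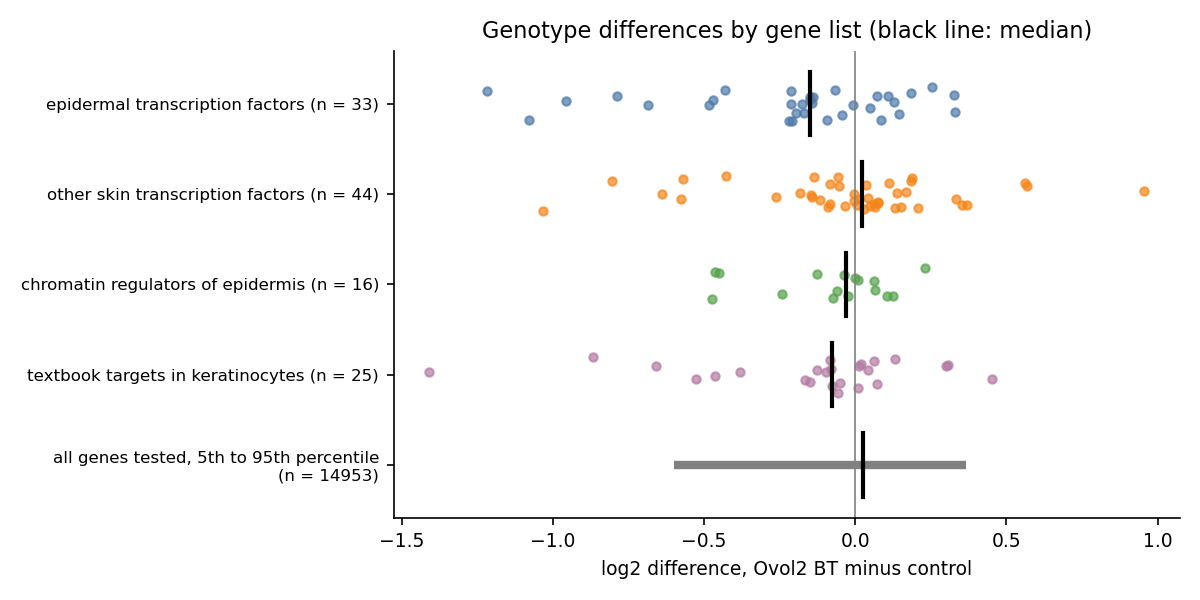
Log2 differences between genotypes for the 33 epidermal transcription factors and for 3 other lists (points, spread vertically for visibility), with each list's median as a black line. The bar at the bottom spans the 5th to 95th percentile of all 14953 genes tested, -0.60 to 0.37, and the factors' median of -0.15 lies left of the median of 0.026 over all genes.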

How the data were processed

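Intensity values of 35557 probe sets on 4 arrays were deposited on a linear scale; the authors made them with Affymetrix Expression Console 1.1.1 and PLIER 2.0, per the submitters' processing notes. How arrays were scaled to each other, and on which genome build, is not stated in those notes. Symbols from the platform annotation (21789 probe sets with 1, 1621 with several, 12147 with none) were updated through the Entrez number to RefSeq GRCm38.p6 for 21698. Values were taken to log2(intensity + 16), without further normalisation, with the brightest probe set per gene. Genes under the 25th percentile of the mean (log2 level 7.32) were left out. limma 3.58.1 in R 4.3.3 fitted Ovol2 BT minus control on all 14953 genes (lmFit, eBayes with trend, 2 residual and 3.45 prior degrees of freedom, two-sided, Benjamini-Hochberg over all of them). With 2 arrays a group the smallest exact permutation p is 0.333, so none was run. The number of arrays limits the precision. On simulated data with 14953 genes, 200 were changed in each of 10 runs, by log2 sizes of 1, 2, 3 or 4. The fit recovered 4.4% of genes changed by a log2 fold of 1 and 67.4% at 2. The adjusted p depends on how many genes are changed and by how much, so these rates hold for that setting only.

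The members and lists were chosen with earlier results of these data known. Named genes were all members, Ovol2, and of each other list those past the threshold or else the 4 with the smallest p. The labels number the replicates but tie no numbers to litters; each array is a pool of 2 mice. The alternatives were other normalisations, offsets, filters and variance models, the mean of probe sets, a replicate block and each array left out. The planned comparison of protein sequences within families was not run.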

Additional observations from a re-analysis of the deposited data

How the results depend on the processing

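With 4 arrays, intervals for the 33 factors spanned 0.57 to 1.82 log2 units. In the simulated data 4.4% of genes changed by a log2 fold of 1 were recovered. In that setting even 2-fold differences were beyond most single-gene tests. Of the 33, 24 kept their sign under every alternative run, Sox21, Bnc1, Tfap2c, Elf5, Grhl2 and Dlx5 among them. For these named factors the groups did not overlap, so leaving out any single array could not turn the sign. Filters, variance models, the block and the mean of probe sets leave a factor's difference unchanged, so they could not turn it either. No factor passed the threshold except without an Ovol2 BT array. Apart from leaving arrays out, Sox21 ranged from -1.26 to -1.10 and Bnc1 from -1.11 to -0.99. Ets1 changed sign with quantile normalisation (0.028) and median centring (0.023). Ovol2 missed the threshold with cyclic loess (4.99) and with a variance without trend (5.01). The cause was not tested.

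Leaving out each array in turn, 9 factors changed sign. The ranges were -0.23 to 0.041 for Tfap2a, -0.19 to 0.11 for Bcl11a, -0.043 to 0.026 for Ets1, -0.11 to 0.40 for Elf3, -0.24 to 0.49 for Ehf, -0.19 to 0.054 for Klf4, -0.48 to 0.12 for Runx1, -0.98 to 0.12 for Rora and -0.079 to 0.18 for Vdr. Lower factors past the threshold numbered 0 to 6, factors at an unadjusted p under 0.05 numbered 2 to 10, and all genes past it 4 to 2453. In the other lists, 0 to 6 skin transcription factors, 0 to 4 chromatin regulators and 0 to 5 targets passed. The median ranged from -0.191 to -0.069 for the 33, from -0.084 to 0.10 for chromatin regulators and from -0.13 to -0.029 for targets, and that of the other skin transcription factors from -0.06 to 0.139. The numbers passing among all genes were 10 with median centring and 0 with cyclic loess (673 at an unadjusted p under 0.05) and with a variance without trend (601). Among the targets 1, Krt5, passed with quantile normalisation, and likewise 1 under a filter set at the 50th percentile.

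Replicate numbers are shared between groups, but nothing ties them to litters. With the replicate number as a block, 9 genes and 1 target (Krt5) passed, and 0 factors (5 at an unadjusted p under 0.05, 15.2%, against 3.87% of all genes). Deviations of same-numbered arrays correlated at -0.17 over genes. A crossed pairing, added after the data were seen, called 5 genes, 1 target and 0 factors (6 at an unadjusted p under 0.05, 18.2%, against 6.71% of all genes).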
